A study of Mus musculus with 2 samples.

Results

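The genes Dppa2, Dppa3, Dppa4, Dppa5a, Utf1, Tcl1, Sall4, L1td1 and Lin28a are markers of the early mouse embryo and of the embryonic stem cells derived from it. They were taken by symbol from the gene list of the deposited matrices, and all 9 were found among the 32285 genes listed. The series holds 2 single-cell RNA libraries of E14 mouse embryonic stem cells (129/Ola background), grown on gelatin in serum with leukaemia inhibitory factor. The library called control is from cells that received a control siRNA (small interfering RNA), and the library called sonKD is from cells that received siRNA against Son. Both siRNAs were delivered with the lipid reagent Lipofectamine 2000, and the cells of both groups were harvested 24 hours later, kept frozen, and after thawing sorted as viable by staining with 7-AAD. SON is a large RNA-binding protein of nuclear speckles, the nuclear bodies rich in splicing factors. The comparison asked how the 9 genes stood when Son was lowered. Each group held 1 library of 1 cell line at 1 time, so what the siRNA did and what differed between the libraries for other reasons cannot be told apart, no test was possible and no p-value is given.

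Dppa stands for developmental pluripotency associated, a name given to genes found by their restriction to pluripotent cells, and the 4 Dppa genes here are not 1 protein family. DPPA2 and DPPA4 are SAP-domain proteins that bind DNA together, prime bivalent promoters and act upstream of the genes of the 2-cell-like state. DPPA3 (STELLA, PGC7) is a maternal and germ cell protein that keeps UHRF1 off chromatin and so protects methylation patterns in the zygote and lowers maintenance methylation. DPPA5A (ESG1) is a small KH-domain RNA-binding protein. UTF1 is a chromatin-bound coactivator, TCL1 is a coactivator of AKT kinases, and SALL4 is a zinc finger factor that recruits the NuRD complex. L1TD1 is an RNA-binding protein derived from a LINE-1 retrotransposon, and LIN28A binds the precursor of let-7 microRNAs and blocks its maturation.

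Cells were the barcodes with at least 2500 UMIs, at least 1000 genes and at most 10% UMIs from mitochondrial genes (mt-). Each UMI (unique molecular identifier) stands for 1 molecule captured. This gave 4978 control cells with a median of 7737.5 UMIs and 2731 sonKD cells with a median of 11612 UMIs, and 2 cell barcodes occurred in both libraries. Son itself stood at 169 CPM (the usual scaling of UMIs to a common library total) in control and 106 CPM in sonKD, which is 62.7% of control, with a log2 ratio of -0.67 (95% interval -0.73 to -0.61). Of 7 markers of embryonic stem cells, 7 were at 10 CPM or more in both libraries, against 0 of 7 for fibroblasts, 0 of 7 for primitive endoderm, 0 of 7 for trophectoderm and 0 of 6 for mesoderm. The fibroblast markers summed to 3.18 CPM in control and 3.65 CPM in sonKD, with Col3a1, Postn and Lum at 0 in both, and 2 of 6 neuroectoderm markers, Tubb3 and Ncam1, passed 10 CPM. Barcodes past the UMI and gene limits but over 10% mt- UMIs made up 11.2% in control and 27.9% in sonKD and were not counted as cells.

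RefSeq promoter entries (GRCm38.p6) were at hand for 4 of the 9 genes, Utf1, Tcl1, L1td1 and Lin28a. How alike these 4 promoters are to each other was not measured. To show where motif matches fall, the 150 bases directly before the first annotated exon of each gene are printed. They lie at chr7:139943639-139943788 on the plus strand for Utf1, chr12:105222794-105222943 on the minus strand for Tcl1, chr4:98726584-98726733 on the plus strand for L1td1 and chr4:134018842-134018991 on the minus strand for Lin28a. Each is written 5′ to 3′ on the strand of its gene. Capitals mark matches to the motifs searched.
Utf1: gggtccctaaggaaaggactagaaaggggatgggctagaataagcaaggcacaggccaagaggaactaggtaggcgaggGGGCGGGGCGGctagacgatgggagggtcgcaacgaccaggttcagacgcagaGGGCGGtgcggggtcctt
Tcl1: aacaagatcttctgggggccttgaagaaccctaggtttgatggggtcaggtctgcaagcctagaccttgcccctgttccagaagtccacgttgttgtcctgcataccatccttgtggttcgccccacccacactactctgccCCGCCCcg
L1td1: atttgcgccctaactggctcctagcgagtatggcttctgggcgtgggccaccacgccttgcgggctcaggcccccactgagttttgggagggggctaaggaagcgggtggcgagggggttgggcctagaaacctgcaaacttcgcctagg
Lin28a: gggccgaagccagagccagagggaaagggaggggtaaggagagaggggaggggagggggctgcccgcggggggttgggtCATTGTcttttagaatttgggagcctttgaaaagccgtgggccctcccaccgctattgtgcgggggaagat

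Motifs were searched on both strands in the whole 300-base entries, which run from 250 bases before the start to 50 after it, and overlapping matches were counted separately. The GC box (GGGCGG, bound by Sp factors) occurred 4 times for Utf1, of which 3 lie in the printed stretch and 2 of those overlap, 2 times for Tcl1, 1 time for Lin28a and not for L1td1. Of all 32851 RefSeq promoters of this length, 35.7% hold a GC box. The core of the SOX motif (ACAATG, here as CATTGT) occurred 1 time, for Lin28a, and is held by 12.6% of all promoters. The octamer ATGCAAAT, the motif of OCT4, was in none of the 4 entries and is held by 1.74% of all, and CCAAT was in none of the 4 and is held by 37.4%. The entries held 17 CpG dinucleotides for Utf1, 14 for L1td1, 11 for Tcl1 and 10 for Lin28a, all above the median of 7 over all promoters and below the upper quartile of 20. The enhancer of Utf1 that OCT4 and SOX2 bind is known to lie on the 3′ side of the gene, which these entries do not reach.

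The 9 genes spanned a wide range of level in both libraries. UMIs mark 3′ ends, so the CPM levels are not divided by length and can be set beside each other, apart from differences in capture. Dppa5a stood far above the rest, with 5027 CPM in control (205632 UMIs, the 18th highest of all genes by rank) and 6075 CPM in sonKD (194592 UMIs, rank 9). L1td1 followed with 606 CPM in control and 609 in sonKD, and Utf1 with 431 CPM in each. The other genes of the middle range lay between 77.0 and 116 CPM. Dppa2 stood at 116 CPM in control and 107 in sonKD, Sall4 at 101 and 82.7, Tcl1 at 84.2 and 77.0, and Dppa4 at 82.3 and 89.8. Lin28a was lower, at 38.8 CPM in control and 37.5 in sonKD, and Dppa3 was almost unread, at 1.32 CPM (54 UMIs) and 1.34 CPM (43 UMIs). In control the counting intervals of Tcl1 and Dppa4 overlapped, and in sonKD those of Sall4 and Tcl1 overlapped, while all other neighbours in the order of levels had separate intervals. Dppa4 was the only one of the 9 to move past others in the order, from below Sall4 and Tcl1 in control to above both in sonKD.

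**Figure D1:**
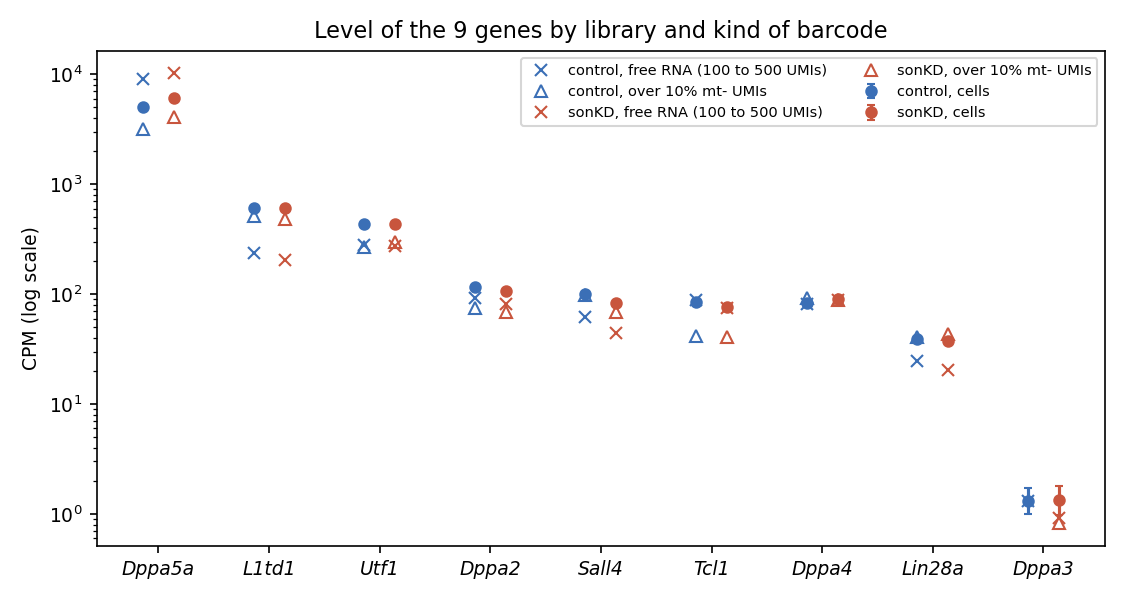
The level of each gene in CPM on a log axis, for cells (filled circles with 95% counting intervals, most smaller than the symbol), free RNA (crosses) and barcodes over 10% mt- UMIs (triangles) of control (blue) and sonKD (red). Dppa5a is the highest in each kind of barcode and is higher in free RNA than in cells, while Dppa3 lies near 1 CPM where it was read. In control barcodes over 10% mt- UMIs Dppa3 had 0 UMIs, so no triangle is drawn for it.

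Between libraries the differences were small for most of the 9 genes. Dppa5a had the highest ratio and Sall4 the lowest, and with plain CPM Utf1, L1td1 and Lin28a had intervals that included 0 on the log2 scale. Ratios are sonKD over control, with exact intervals that, like all others here, cover counting error only and not the spread between cultures, for which there is no replicate. Of the 8063 genes whose mean level over the libraries was 10 CPM or more, 820 (10.2%) were at or below 0.8-fold, a log2 ratio of -0.32, and 282 (3.5%) were at a log2 ratio of 0.32 or more. Of the 9 genes, 8 reached 10 CPM, all but Dppa3, and of these 0 were at or below 0.8-fold and 0 were at a log2 ratio of 0.32 or more. With 8 genes, shares of 10.2% and 3.5% would place less than 1 gene in each class, so the counts of 0 lie near the background. The log2 ratios of the 8 genes had a median of -0.02, beside -0.12 over all genes (5th to 95th percentile -0.40 to 0.25). With plain CPM, 4 of the 8 lay below 0 and the other 4 above 0. The interval then lay wholly below 0 for 3 (Dppa2, Tcl1 and Sall4) and wholly above 0 for 2 (Dppa4 and Dppa5a). Of all 8063 genes, 74.9% lay below 0 with plain CPM and 56.6% under TMM factors (trimmed mean of M values), and the counts below 0 given for gene lists are to be read against these shares. The choice of scaling moved the other figures too. Under TMM factors, 370 of all genes were at or below 0.8-fold and 449 at a log2 ratio of 0.32 or more, so that of the genes past either bound 54.8% were higher in sonKD, against 25.6% with plain CPM. With median-of-ratios factors that share was 53.3%, and without mitochondrial and ribosomal protein genes it was 49.1%. The TMM shift of 0.09 put Lin28a at 0.04 instead of -0.05, L1td1 at 0.10 and Utf1 at 0.09. Dppa5a went to 0.36, past the bound of 0.32, while Dppa2, Tcl1 and Sall4 stayed below 0 at -0.03, -0.04 and -0.20. The shift is larger than the distance from 0 of the upper bounds of Dppa2 and Tcl1 (-0.06 each) and the lower bounds of Utf1 and L1td1 (-0.03 and -0.02). Under TMM factors the intervals of Dppa2 and Tcl1 therefore include 0, and those of Utf1 and L1td1 lie wholly above 0.

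**Figure D2:**
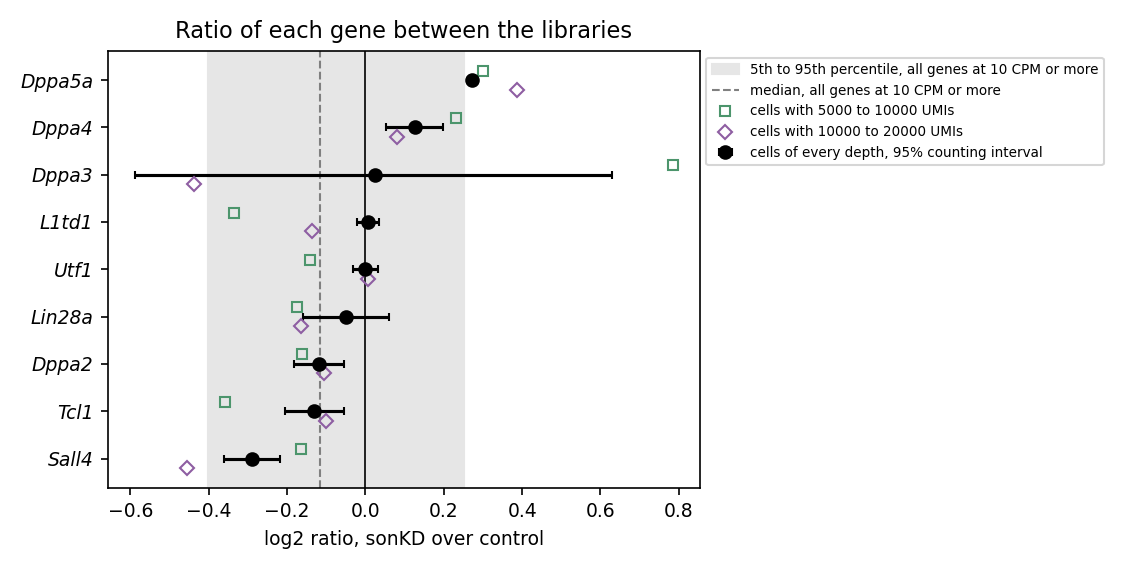
The log2 ratio of each gene, sonKD over control, in all cells (black, with 95% counting interval) and in cells of 5000 to 10000 UMIs (green squares) or 10000 to 20000 UMIs (violet diamonds), with the 5th to 95th percentile of all genes in grey and their median dashed. Dppa5a at 0.27 lies past the grey band (-0.40 to 0.25) and the other genes lie within it in all cells, while among the 8 genes at 10 CPM or more L1td1, Tcl1 and Sall4 shift most between the depth ranges.

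Dppa2 and Dppa4 are neighbours on mouse chromosome 16 and are read in the same direction. In GENCODE M21 (GRCm38), Dppa4 lies at chr16:48283733-48294237 and Dppa2 at chr16:48303908-48319723, both protein-coding genes on the plus strand with no overlapping gene. Their encoded proteins act together, and their ratios lay on opposite sides of 0. Dppa2 had 4751 UMIs in control and 3426 in sonKD, a log2 ratio of -0.12 (-0.18 to -0.06), close to the median of all genes. Dppa4 had 3367 UMIs in control and 2877 in sonKD, a log2 ratio of 0.13 (0.05 to 0.20), at the 89.1 percentile of all genes. Dppa4 has 1662 bases of exon sequence and falls in the shortest of 10 classes of exon length, whose median log2 ratio was 0.01. Dppa2 has 2447 bases and falls in the next class, with a median of -0.07, and the part of length was not tested. Both directions held in cells of 5000 to 10000 UMIs (-0.16 and 0.23) and of 10000 to 20000 UMIs (-0.10 and 0.08), although the interval of Dppa4 in the deeper range, -0.03 to 0.19, included 0. In the thinly filled ranges Dppa4 lay below 0, at -0.22 (-0.73 to 0.26) in cells of 2500 to 5000 UMIs and -0.09 (-0.42 to 0.25) above 20000 UMIs. The next gene at 10 CPM on the far side of Dppa2, Morc1, stood at 56.0 CPM in control and at 58.0 in sonKD, a ratio of 0.05 (-0.04 to 0.14). On the far side of Dppa4, Nectin3 stood at 20.5 and 17.9 CPM, a ratio of -0.20 (-0.35 to -0.04).

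The 2-cell-like genes that lie downstream of DPPA2 and DPPA4 were almost unread. Over 15 genes named Zscan4, Tcstv or Usp17l, control cells held 0 UMIs and sonKD cells 1 UMI. These families consist of near-identical copies, so reads with several matches may have gone uncounted, and no limit on the share of 2-cell-like cells can be drawn from these counts. Of 18 listed 2-cell-like genes, 1 reached 10 CPM. That gene was Ddit4l, at 19.7 CPM in control and at 26.3 in sonKD, a log2 ratio of 0.41 (0.27 to 0.56), and it is also known as a stress-induced inhibitor of mTOR signalling. Of 14 germline genes, several of which are bivalent or methylated targets in stem cells, 3 reached 10 CPM. Sycp3, a synaptonemal complex protein, stood at 12.1 CPM in control and 14.5 in sonKD, a log2 ratio of 0.27 (0.08 to 0.45). Ddx4, a germ cell RNA helicase, stood at 13.5 and 12.0, a ratio of -0.18 (-0.37 to 0.01).

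Dppa3 gave too few molecules to be compared. It lies at chr6:122626410-122630272 on the plus strand, between Gdf3 and Nanog, in a cluster of pluripotency genes. Both neighbours were read well. Gdf3, a growth factor of the TGF-beta family, stood at 87.2 CPM in control and 85.9 in sonKD, and Nanog, a core pluripotency factor, at 170 and 153. Dppa3 itself had a log2 ratio of 0.02 with an interval from -0.59 to 0.63, so a change in either direction up to about these bounds was not detectable at this depth. A Dppa3 UMI was present in 53 control cells (1.06%) and in 41 sonKD cells (1.50%), and its highest level in any kind of barcode was 1.34 CPM. Within the last 500 bases of its transcript, 10.6% of the 50-base windows also occur in 3 other genes, among them the pseudogene Dppa3-ps, so a few reads may be unassigned.

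Of 12 genes listed around UHRF1, the DNA methyltransferases and the TET enzymes, on which DPPA3 acts, 11 reached 10 CPM. With plain CPM 10 of the 11 lay below 0 with a median of -0.20, and 7 with a median of -0.11 under TMM factors. Uhrf1, which recruits DNMT1 to replicated DNA, stood at 159 CPM in control and 105 in sonKD, a log2 ratio of -0.59 (-0.65 to -0.53). Dnmt1, the maintenance methyltransferase, stood at 185 and 131, a ratio of -0.50 (-0.55 to -0.45). These 2 were the only ones of the 11 at or below 0.8-fold, beside the background of 10.2%.

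Dppa5a was the most abundant of the 9 genes and had the highest ratio. It lies at chr9:78367052-78368177 on the minus strand, with 3 exons and 619 bases of exon sequence. It held 5027 CPM in control and 6075 CPM in sonKD, 121% of control, a log2 ratio of 0.27 (0.26 to 0.28) at the 95.6 percentile of all genes. Short transcripts had higher ratios as a whole. The 807 genes with the shortest exon length (204 to 1715 bases, the first of 10 classes), to which Dppa5a belongs, had a median log2 ratio of 0.01 and a 95th percentile of 0.65, against a median of -0.16 for the 806 longest, and the part of transcript length in the ratio of Dppa5a was not tested. Of the 50-base windows in the last 500 bases of the transcript, 46.3% also occur in other genes, 9 in number, among them Dppa5b and Dppa5c. The count of Dppa5a is therefore uncertain by whatever share of reads the counting assigned to none or to another copy.

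The gene next to Dppa5a, Ooep (chr9:78376109-78378725, minus strand), encodes a KH-domain protein of the subcortical maternal complex of the oocyte. Ooep stood at 220 CPM in control and at 256 in sonKD, a log2 ratio of 0.22 (0.17 to 0.26), and 0% of its 3′ windows were shared with another gene. Ddx43, the gene after it, was at 33.5 and 32.2 CPM, a ratio of -0.05. Khdc3, another gene of that oocyte complex, which lies elsewhere on the chromosome at chr9:73101836-73104438, stood at 18.5 CPM in control and 25.0 in sonKD, a ratio of 0.44 (0.29 to 0.58). Its annotation overlaps Gm20509, so its reads may not all be its own. Of 7 listed relatives and neighbours of Dppa5a, these 3 reached 10 CPM, 2 of them above 0 and 1 at a log2 ratio of 0.32 or more (3.5% of all genes), while under TMM factors all 3 lay above 0.

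Utf1 lies at chr7:139943789-139945112 on the plus strand and has 1227 bases of exon sequence. With plain CPM its interval over all cells included 0, while the ranges of depth and mitochondrial share described further on gave differences of either sign. Its level was 431 CPM in each (17627 UMIs in control, 13806 in sonKD), rank 308 in both, with a log2 ratio of 0.00 (-0.03 to 0.03) and 0.09 under TMM factors. UTF1 is known to bind bivalent chromatin, which carries the mark of Polycomb repressive complex 2. Of 10 genes listed for that complex 7 reached 10 CPM, and 5 of the 7 lay below 0, with a median of -0.21, and also 5 under TMM factors, with a median of -0.12. Suz12, a core subunit, stood at 254 CPM in control and 204 in sonKD, a ratio of -0.31 (-0.36 to -0.27). Jarid2, an accessory subunit, stood at 425 and 360, a ratio of -0.24 (-0.27 to -0.21).

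Sall4 had the lowest ratio of the 9 genes. It lies at chr2:168748332-168767943 on the minus strand, with 5536 bases of exon sequence, and overlaps the annotated gene Gm14261. It held 4135 UMIs or 101 CPM in control and 2650 UMIs or 82.7 CPM in sonKD, 81.8% of control, a log2 ratio of -0.29 (-0.36 to -0.22) at the 13.6 percentile of all genes. In cells of 10000 to 20000 UMIs it stood at 110 CPM in control and at 80.5 in sonKD, a ratio of -0.46 (-0.56 to -0.35). In cells of 5000 to 10000 UMIs it stood at 98.3 and 87.7, a ratio of -0.16 (-0.31 to -0.02). The medians over all genes were -0.18 in the deeper of these ranges and -0.16 in the shallower. In the thinly filled ranges the ratio was 0.02 (-0.44 to 0.47) at 2500 to 5000 UMIs and -0.07 (-0.40 to 0.27) above 20000 UMIs. Of 15 genes listed for the SALL family and the NuRD complex, 13 reached 10 CPM and 12 of them lay below 0, with a median of -0.12 equal to that of all genes, and 7 under TMM factors. Sall1, a close relative of Sall4, stood at 45.2 CPM in control and 36.1 in sonKD, a ratio of -0.32 (-0.43 to -0.22). Mta2, a NuRD subunit, stood at 31.3 and 24.2, a ratio of -0.37 (-0.50 to -0.24), and these were the 2 of 13 at or below 0.8-fold, beside 10.2% of all genes, and 0 were under TMM factors.

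Tcl1 lies at chr12:105216750-105222793 on the minus strand, beside the related Tcl1b genes, with 1845 bases of exon sequence. It held 3446 UMIs in control and 2466 in sonKD, 84.2 and 77.0 CPM, a log2 ratio of -0.13 (-0.21 to -0.06) near the median of all genes. None of the Tcl1b genes next to it reached 10 CPM. Of 16 genes listed for the TCL1 relatives and the AKT pathway 9 reached 10 CPM, and all 9 lay below 0, with a median of -0.24, against 8 with a median of -0.15 under TMM factors. Akt2, a kinase of the family that TCL1 binds, stood at 19.3 CPM in control and 13.8 in sonKD, a ratio of -0.48 (-0.65 to -0.31), and was the 1 gene of the 9 at or below 0.8-fold, near the 10.2% of all genes.

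The RNA-binding genes L1td1 and Lin28a had intervals that included 0 over all cells with plain CPM. In cells of 10000 to 20000 UMIs both were lower in sonKD, L1td1 with a ratio of -0.14 (-0.18 to -0.10) and Lin28a with a ratio of -0.16 (-0.32 to -0.003). The median over all genes in that range was -0.18, so neither ratio lay below it. L1td1, at chr4:98726734-98738480 on the plus strand with 3174 bases of exon sequence, held 24801 UMIs in control and 19516 in sonKD, a log2 ratio of 0.01 (-0.02 to 0.03). Lin28a, at chr4:134003330-134018841 on the minus strand with 3996 bases of exon sequence and an overlap with Gm13061, held 1586 UMIs in control and 1201 in sonKD, a ratio of -0.05 (-0.16 to 0.06). Of 14 genes named for let-7 processing and the LIN28 pathway, 12 symbols were in the matrices and all 12 reached 10 CPM. All 12 lay below 0, with a median of -0.14, and 9 did so under TMM factors, with a median of -0.05. Trim71, a target and partner of the let-7 pathway, stood at 179 CPM in control and 138 in sonKD, a ratio of -0.37 (-0.43 to -0.32), the 1 gene of these 12 at or below 0.8-fold, beside 10.2% of all genes, and 0 were under TMM factors. Tarbp2, a partner of Dicer, stood at 54.7 and 45.3, a ratio of -0.27 (-0.37 to -0.18). Of 15 let-7 target genes 12 reached 10 CPM. All 12 lay below 0, with a median of -0.13, and 8 under TMM factors. Cdc25a stood at 50.3 and 41.7 CPM, a ratio of -0.27 (-0.37 to -0.17), and Igf2bp3 at 125 and 105 CPM, a ratio of -0.25 (-0.32 to -0.19). The microRNAs themselves were not measured.

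Among 17 genes of naive and general pluripotency, all of which reached 10 CPM, 15 lay below 0 with a median of -0.09, against 9 with a median of 0.00 under TMM factors, so the direction of that list rested on the scaling. Prdm14, which represses methyltransferase genes, stood at 13.1 CPM in control and 10.3 in sonKD, a ratio of -0.35 (-0.55 to -0.15), and Nr5a2, an orphan nuclear receptor, at 80.3 and 63.9, a ratio of -0.33 (-0.41 to -0.25). Of 14 formative and primed genes 7 reached 10 CPM, and 6 of the 7 lay below 0 under both scalings. Pou3f1 stood at 13.0 and 10.5 CPM, a ratio of -0.31 (-0.52 to -0.11), and Sox4 at 20.1 and 16.2, a ratio of -0.31 (-0.47 to -0.15).

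The share of cells with at least 1 UMI depends on depth, and sonKD cells were deeper. Each cell was therefore also thinned at random to 2500 UMIs, which left out no cell. After thinning to 2500 UMIs, Sall4 had the largest difference in share, and the intervals of the difference included 0 for Dppa5a, L1td1, Utf1, Dppa4, Lin28a and Dppa3. Thinning to 5000 UMIs instead left out the shallower cells, 514 in control and 172 in sonKD, so it changed both the depth and the set of cells. Dppa4 then had shares of 32.5% in control and 37.2% in sonKD, a difference of 4.68 points, for which no interval was computed. Lin28a turned there to 17.5% and 16.0%, a difference of -1.52 points. Sall4 was present in 21.5% of cells in control and 17.4% in sonKD, which is -4.07 percentage points (exact Clopper-Pearson bounds combined to -5.89 to -2.20). Without thinning the order turned, with Sall4 in 52.6% of control and 58.3% of sonKD cells. Tcl1 was present in 18.2% and 16.1% of thinned cells, -2.09 points (-3.84 to -0.31), and in 45.5% and 51.8% of unthinned cells. Dppa2 was present in 23.8% and 21.8%, -2.02 points (-3.97 to -0.03), and in 57.4% and 65.3% unthinned.

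Dppa4 was present in 18.5% of thinned control cells and 20.0% of thinned sonKD cells, 1.53 points (-0.32 to 3.41), and in 46.2% and 61.7% unthinned. Utf1 was present in 62.3% and 63.3% (89.9% and 93.9% unthinned), L1td1 in 71.8% and 72.0% (93.9% and 96.0%), and Lin28a in 8.56% and 8.97% (25.6% and 33.4%). Dppa5a was found in all cells of both libraries before thinning and in 99.7% of thinned cells of each. The thinned counts of Dppa5a had a median of 12 UMIs in control and 15 in sonKD, a 5th percentile of 5 in both and a 95th percentile of 22 and 27, so the distributions overlapped over most of their range. Dppa3 was present in 17 thinned control cells (0.342%) and 6 thinned sonKD cells (0.22%). A thinned cell held UMIs of 3 of the 9 genes at the median in both libraries, with a mean of 3.25 in control and 3.20 in sonKD.

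**Figure D3:**
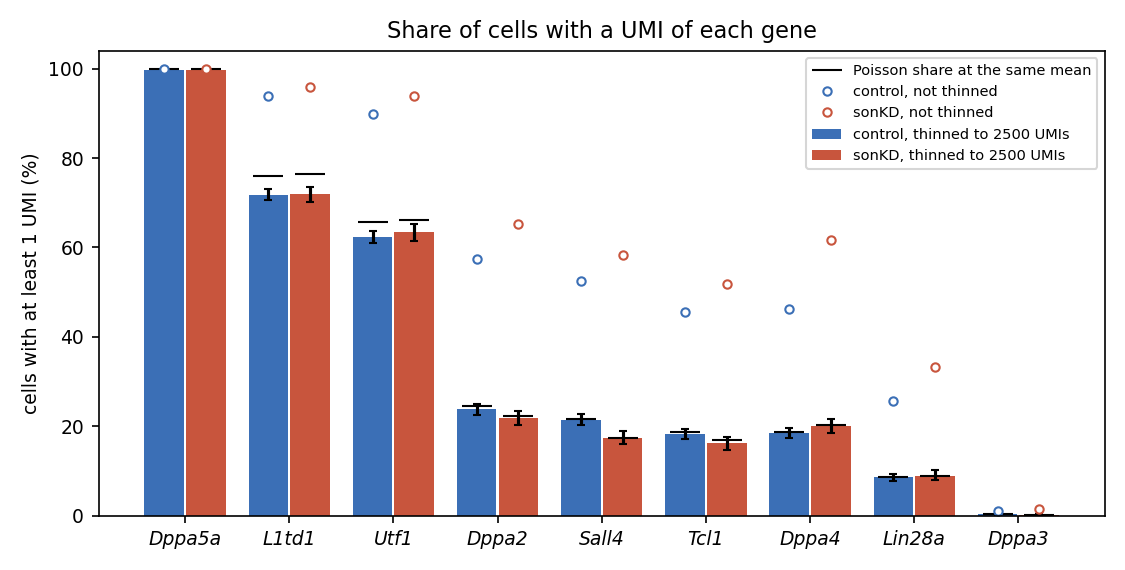
The percent of cells with at least 1 UMI of each gene in control (blue) and sonKD (red), as bars for cells thinned to 2500 UMIs with 95% Clopper-Pearson intervals and as open circles for unthinned cells, with black lines for the share that a Poisson count of the same mean gives. The bars of Sall4 go from 21.5% to 17.4% while its open circles go from 52.6% to 58.3%, and Dppa5a is near 100% in both.

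The shares of Sall4, Dppa4 and Lin28a lay close to the share that a Poisson count of the same mean gives. A Poisson count with the mean of Sall4 gives 21.6% in control and 17.5% in sonKD, next to the 21.5% and 17.4% measured. For Dppa4 it gives 18.7% and 20.2%, next to 18.5% and 20.0%, and for Lin28a 8.75% and 8.88%, next to 8.56% and 8.97%. For L1td1 the Poisson share was 75.9% and 76.4% against 71.8% and 72.0% measured. For Utf1 it was 65.6% and 66.2% against 62.3% and 63.3%. These 2 genes also had higher means, 1.42 and 1.07 UMIs per thinned control cell, against 0.24 for Sall4, 0.21 for Dppa4 and 0.09 for Lin28a. At a lower mean the same spread gives a smaller gap, so gaps of genes with unlike means do not rank them by unevenness. Tcl1 and Dppa2 had low means too. For Tcl1 the Poisson share was 18.6% in control and 16.8% in sonKD, against 18.2% and 16.1% measured. For Dppa2 it was 24.5% and 22.3%, against 23.8% and 21.8% measured. Cell-to-cell variability was measured as the squared coefficient of variation of thinned counts less its Poisson part, for the 5782 genes that averaged 0.05 UMI or more per thinned cell in each library. Its median over all these genes was 0.139 in control and 0.150 in sonKD. Sall4 had low values, 0.031 in control (21.5 percentile) and 0.036 in sonKD (26.3 percentile), but thinned to 5000 UMIs it stood at 0.160 in control and 0.034 in sonKD, so the low value in control did not hold at that depth. Tcl1 was the most uneven of the 8 genes in sonKD, at 0.285 (70.3 percentile) in control and 0.470 (80.9 percentile) in sonKD. Thinned to 5000 UMIs it stood at 0.286 in control and 0.374 in sonKD. In cells with no more than 5% mt- UMIs it stood at 0.259 and 0.232, so the order of the libraries turned there. Lin28a had the highest value in control, 0.535, and the lowest in sonKD, -0.150, at a mean of 0.09 UMI per thinned cell in both, which fixes this measure poorly. Dppa5a stood at 0.109 and 0.122, Dppa2 at 0.223 and 0.152, Dppa4 at 0.179 and 0.106, Utf1 at 0.197 and 0.163, and L1td1 at 0.179 and 0.171. Thinned to 5000 UMIs, Dppa2 stood at 0.10 in control and 0.23 in sonKD, so the order of the libraries turned. Dppa4 fell there to 0.079 and 0.033.

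The level of several of the genes moved with the depth of the cell in both libraries, as a share of all UMIs. L1td1 went from 421 CPM in control cells of 2500 to 5000 UMIs through 575 (5000 to 10000 UMIs) to 701 (10000 to 20000 UMIs), and stood at 692 CPM above 20000 UMIs. In sonKD the same ranges gave 430, 455, 638 and 723 CPM. Within a range of depth, L1td1 was lower in sonKD in both of the well-filled ranges, with log2 ratios of -0.34 (-0.40 to -0.28) and -0.14 (-0.18 to -0.10). Its interval over all cells included 0 with plain CPM. The medians over all genes in these ranges were -0.16 and -0.18, so L1td1 lay below the median in the shallower range and above it in the deeper. Of control cells 3475 fell in the range of 5000 to 10000 UMIs and 940 in that of 10000 to 20000, and of sonKD cells 675 and 1770.

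Tcl1 went from 54.1 CPM in the shallowest control cells to 86.1, 84.9 and 88.9 CPM in the deeper ranges, and in sonKD from 54.1 to 67.2, 79.2 and 83.6 CPM. Its ratio was -0.36 (-0.52 to -0.20) at 5000 to 10000 UMIs and -0.10 (-0.21 to 0.01) at 10000 to 20000. Utf1 went from 316 CPM to 433, 441 and 481 CPM in control and from 306 to 393, 443 and 431 CPM in sonKD. Dppa5a followed no such course. It stood at 5244, 5172, 4663 and 5061 CPM in control and at 5105, 6371, 6101 and 5463 CPM in sonKD, with ratios of -0.04, 0.30, 0.39 and 0.11, so that the shallowest cells, 514 in control and 172 in sonKD, showed no higher level in sonKD. The part of depth in these ratios was not tested.

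**Figure D4:**
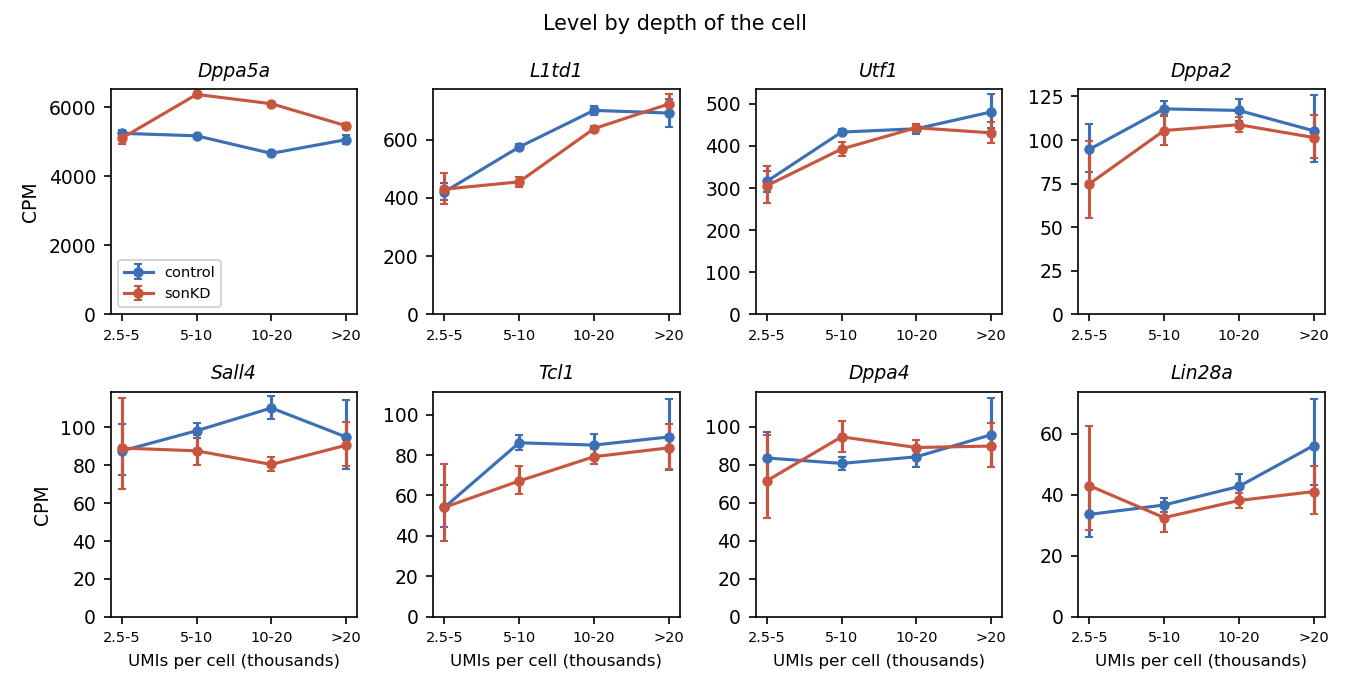
The level in CPM (from 0, each panel with its own axis) of 8 genes in cells of 4 depth ranges (UMIs per cell divided by 1000) for control (blue) and sonKD (red), with 95% counting intervals. L1td1 is higher in deeper cells of both libraries (421 to 692 CPM in control, 430 to 723 CPM in sonKD), and Dppa5a separates the libraries most in the 2 middle ranges.

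The share of mitochondrial UMIs moved with some of the same genes. Utf1 stood at 533 CPM in control cells under 2.5% mt- UMIs, 439 CPM at 2.5 to 5% and 321 CPM at 5 to 10%, and at 482, 450 and 353 CPM in sonKD. Its ratio went from -0.15 (-0.27 to -0.03) over 0.03 to 0.14 (0.05 to 0.22) across these ranges, so the ratio of 0.00 over all cells joins differences of opposite sign. Sall4 had ratios of -0.39, -0.36 and -0.07 across the same ranges, the last with an interval of -0.24 to 0.09 that included 0. Dppa5a had ratios of 0.29, 0.27 and 0.31. The median share of mitochondrial UMIs was 3.65% in control and 4.10% in sonKD, and its part in the ratios was not tested.

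Over cells, the counts of the genes had correlations near 0, and for most of them the counts are too low to show whether they vary together. Pearson's r of log-transformed thinned counts was computed for the 28 pairs of the 8 genes other than Dppa3, and given as a description, since all cells of a library share its preparation and since weak correlations in sparse counts are no finding. The 28 pairs had a median r of 0.010 in control (from -0.029 to 0.067) and 0.015 in sonKD (from -0.026 to 0.039). Over all 16712871 pairs of the 5782 genes the 5th and 95th percentiles were -0.028 and 0.030 in control and -0.033 and 0.037 in sonKD. Above the 95th percentile lay 3 of the 28 pairs in control and 2 in sonKD. The highest pair in control was Dppa5a with Utf1, at 0.067 in control and 0.036 in sonKD. Dppa2 and Dppa4, the partners that share a locus, had an r of -0.002 in control and -0.017 in sonKD. Dppa4 was present in 18.0% (15.8 to 20.3) of control cells with a Dppa2 UMI and 18.6% (17.4 to 19.9) of those without, and in sonKD in 19.2% (16.1 to 22.6) and 20.2% (18.5 to 22.0). At this depth no joint variation of the pair was detectable.

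**Figure D5:**
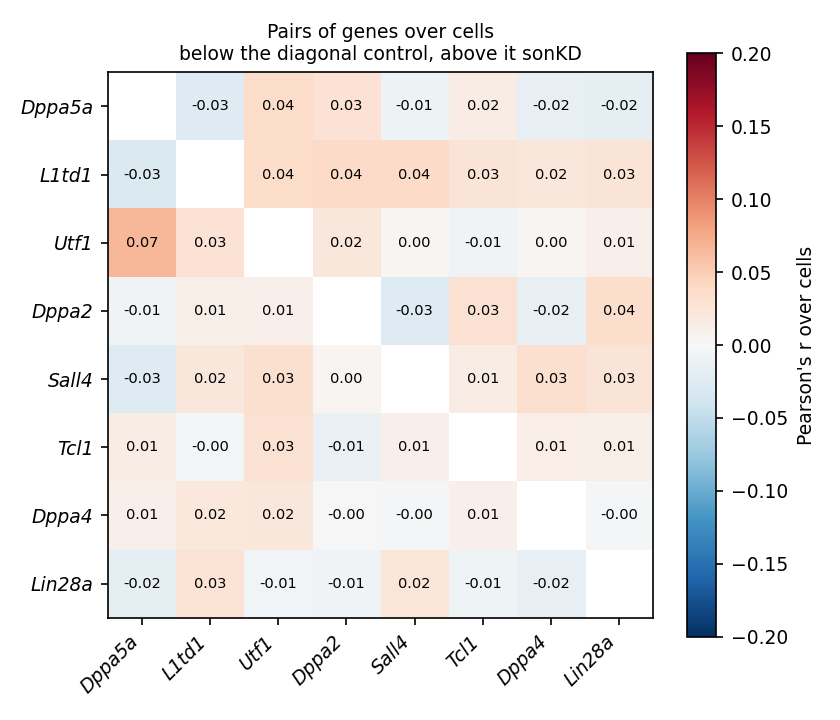
Pearson's r over cells for each pair of 8 genes, control below the diagonal and sonKD above it, on log-transformed counts of cells thinned to 2500 UMIs, with the colour scale from blue (negative) to red (positive). All values lie between -0.03 and 0.07, and the highest is Dppa5a with Utf1 in control.

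The genes whose counts were most like those of each of the 8 genes were taken as the 3 with the highest r over control cells, among the 6125 genes that averaged 0.05 UMI or more per thinned control cell. For Dppa5a they were the ribosomal protein genes Rpsa (r = 0.19 in control and 0.16 in sonKD), Rpl8 (0.17 and 0.15) and Rps20 (0.16 and 0.17), and these ranked 2, 4 and 1 in sonKD. The r of Dppa5a with the summed counts of 101 ribosomal protein genes was 0.25 in control and 0.20 in sonKD. Its neighbour Ooep had an r of 0.12 with Dppa5a in control (rank 27) and 0.13 in sonKD (rank 6). For Utf1 the most alike were H2afz, a histone variant gene (0.12 and 0.11), Ube2s (0.11 and 0.06) and Hspa8 (0.10 and 0.09). For Tcl1 they were H2afz (0.08 and 0.10), Cct5 (0.07 and 0.05) and Spp1 (0.06 and 0.07). For L1td1 they were the nuclear noncoding RNA Malat1 (0.15 and 0.11), Klf12 (0.12 and 0.09) and the nucleolin gene Ncl (0.11 and 0.12). H2afz ranked 1 for both Utf1 and Tcl1 in sonKD as well, and Ncl ranked 1 for L1td1.

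For the other 4 genes no r exceeded 0.061 in control, and the genes ranked highest there did not stay high in sonKD. They were Stmn1, Tubb4b and Dus1l for Dppa2, Dlgap5, 1190005I06Rik and Mybl2 for Dppa4, Mettl2, Rrbp1 and Mast2 for Sall4, and Slc6a8, Zcchc8 and Snrpb2 for Lin28a. The best of these 12 ranks in sonKD was 252 of 6125, for Stmn1. With the summed counts of the naive pluripotency genes, Dppa5a had an r of 0.13 in control and 0.14 in sonKD, L1td1 0.08 and 0.11, and Utf1 0.07 and 0.08. With the summed counts of the formative and primed genes Utf1 had an r of 0.07 and 0.08, Dppa5a -0.01 and 0.01, and L1td1 0.06 and 0.01. With the share of mitochondrial UMIs, Utf1 had an r of -0.17 and -0.12 and Dppa5a of -0.13 and -0.10.

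Free RNA, taken from the barcodes with 100 to 500 UMIs, held the same genes in other proportions. Dppa5a was more concentrated there than in cells, at 9141 CPM in control (1.82 times the cells) and 10241 CPM in sonKD (1.69 times). L1td1 was the most depleted, at 237 CPM in control (0.391 times the cells) and 203 CPM in sonKD (0.334 times). Tcl1 and Dppa4 were at about the level of the cells, with 1.05 and 0.995 times in control. Sall4 stood at 62.4 CPM in free RNA of control and 44.3 CPM in that of sonKD, 0.617 and 0.536 times the cells. Utf1 stood at 0.650 and 0.640 times the cells, Dppa2 at 0.787 and 0.765, and Lin28a at 0.640 and 0.542. In the barcodes over 10% mt- UMIs, Tcl1 stood at 42.0 CPM in control and 40.9 in sonKD, 0.499 and 0.531 times the cells, and Dppa5a at 0.634 and 0.675 times, while Dppa4 (1.12 and 0.987 times) and Lin28a (1.06 and 1.16 times) were near the level of the cells. The shares of cells with a UMI, the CPM levels and the ratios given above therefore include an unmeasured part from free RNA. The barcodes with 100 to 500 UMIs held 18361838 of all 71046373 UMIs in control and 18646368 of 60352438 in sonKD.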

How the data were processed

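Matrices of UMI counts per gene and barcode were deposited by the authors for 1 control and 1 sonKD library of 10x 3′ v3 chemistry. Per the submitters' processing notes the counts were made with Cell Ranger 7.1.0 and mm10, and the annotation and the handling of intronic reads are not given in the sources used here. The matrices list every barcode (1408944 in control, 1400093 in sonKD), so cells were selected here, giving 40902904 UMIs in control and 32032551 in sonKD. Doublets were kept, since Scrublet (scanpy 1.11.5) called 0.0603% and 0.0366% of cells, too few for a working call, and were removed by rate as an alternative.

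UMIs were summed over cells to CPM, with exact Poisson intervals, and ratios have exact conditional binomial intervals at 95%. Computation used Python 3.11.15, numpy 2.4.6, scipy 1.17.1 and pandas 2.3.3, and edgeR 4.0.16 for TMM factors only. The scripts were tested on simulated data. No count model was fitted. The part of intronic reads in the ratios was not tested.

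The 9 genes and all gene lists were chosen with earlier results of these data known. Named genes are the 9 genes, Son, the 2 genes of each list with the log2 ratio farthest from 0 among those at 10 CPM, and the 3 genes most alike to each of the 9. Of these, 1 gene is not reported here. Genes that lie next to the 9 on the chromosome were named after their values were seen. Positions are from GENCODE M21 (GRCm38), the build named mm10 in the notes, and promoters from RefSeq. Alternatives tried were 3 other scalings, the mean over cells, stricter limits on UMIs, mitochondrial share and CPM, doublet removal, 2 depth ranges, thinning to 5000 UMIs and Spearman's rho.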

Additional observations from a re-analysis of the deposited data

Results flagged for a closer look

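Barcodes that were not counted as cells also held Dppa5a at a higher level in sonKD than in control. In free RNA (barcodes with 100 to 500 UMIs) Dppa5a stood at 10241 CPM in sonKD and 9141 CPM in control. In barcodes over 10% mt- UMIs it stood at 4098 CPM in sonKD and 3188 CPM in control. Only levels higher in sonKD with separate intervals were flagged. Sall4 was lower in sonKD with separate intervals in both kinds, at 44.3 against 62.4 CPM in free RNA and 68.6 against 97.7 CPM over 10% mt- UMIs. In free RNA, Dppa2, Tcl1, L1td1 and Lin28a were also lower in sonKD with separate intervals. The ratios between libraries in the report do not use these barcodes, and each value comes from 1 library.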

How the results depend on the processing

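No paired analysis was possible because each group has 1 sample. The median log2 ratio of the 8 genes was -0.02 with plain CPM, 0.066 under TMM factors, 0.061 under median-of-ratios factors and 0.049 without mitochondrial and ribosomal protein genes. It was -0.16 in cells of 5000 to 10000 UMIs and -0.10 in cells of 10000 to 20000 UMIs, beside -0.16 and -0.18 over all genes. At a log2 ratio of 0.32 or more lay 0 genes with plain CPM and 1 gene, Dppa5a, under those 3 scalings and in cells of 10000 to 20000 UMIs. At or below 0.8-fold lay 0 of the 8 genes over all cells, 1 (Sall4) at no more than 5% mt- UMIs, 2 (L1td1 and Tcl1) in cells of 5000 to 10000 UMIs and 1 (Sall4) in cells of 10000 to 20000 UMIs. Of all genes tested, 797 of 7987 lay there at no more than 5% mt- UMIs. In cells of 5000 to 10000 UMIs 1935 of 7994 did, and in cells of 10000 to 20000 UMIs 2146 of 8115. Over these settings the ratio ran from 0.26 to 0.39 for Dppa5a, 0.08 to 0.23 for Dppa4, -0.46 to -0.16 for Sall4, -0.16 to -0.03 for Dppa2, -0.36 to -0.04 for Tcl1, -0.34 to 0.10 for L1td1, -0.14 to 0.09 for Utf1 and -0.17 to 0.04 for Lin28a, and the cause was not tested. Of 8063 genes tested with plain CPM, 820 were at or below 0.8-fold and 282 at 0.32 or more. These counts were 370 and 449 of 8061 under TMM factors and 383 and 438 of 8061 under median-of-ratios factors. Without mitochondrial and ribosomal protein genes they were 486 and 468 of 8853. They were 1935 and 591 of 7994 at 5000 to 10000 UMIs and 2146 and 353 of 8115 at 10000 to 20000 UMIs. With the CPM limit raised to 50 they were 226 and 169 of 3204. Of 81 alternative log2 ratios 48 stayed within the counting interval, as did 23 of 27 differences in share, and 35 of 48 variability values stayed within 1.5 times their value. The median pair correlation stayed within 0.01 in 4 of 4 alternatives in each library. That tolerance is about as large as the medians, 0.010 in control and 0.015 in sonKD, so it says little. In cells thinned to 5000 UMIs the order of the libraries turned, with 0.013 in control and 0.005 in sonKD. Depth limits Dppa3 most, with 54 and 43 UMIs.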
